A study of Mus musculus with 2 samples.

Results

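Inflammasomes are protein platforms that sense microbes or damage inside a cell and turn on inflammatory caspases, which release interleukins and kill the cell through membrane pores. Described here are 9 of the genes involved, chosen by symbol: the 5 sensors Nlrp3, Nlrc4, Nlrp1b, Naip2 and Naip5, the adaptor Pycard, the 2 caspases Casp1 and Casp4, and the pore former Gsdmd. All 9 symbols were found among 55536 annotated genes, and they were joined by gene identifier across the deposited tables. A sensor that has met its ligand gathers Pycard, also called ASC, whose filaments recruit caspase-1. Caspase-1 cuts the precursors of interleukin-1β and interleukin-18 as well as gasdermin D, whose freed amino-terminal part forms pores in the plasma membrane. The mouse gene Casp4 encodes the protein known as caspase-11, which binds the lipid A part of lipopolysaccharide in the cytosol and cuts gasdermin D directly. In macrophages these proteins drive pyroptosis, a lytic and inflammatory form of cell death.

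The RNA came from the nuclei of mouse macrophages grown from bone marrow (BMDM) of strain C57BL/6J, treated for 10 min with Lipid A, a Toll-like receptor 4 ligand, at 100 ng/ml. One label field names the fraction nucleoplasmic and another names it nucleus. After ribosomal RNA depletion, total RNA was sequenced in 2 libraries of 1 group, biological replicates 1 and 2, which are separate biosamples under 1 donor identifier. The labels do not say whether they came from separate animals, so the spread between them may be technical; sex and age were not collected. Replicate 1 started from 1 µg and replicate 2 from 500 ng of RNA. With 1 group there was no contrast between conditions and no test, and a level after 10 min of Lipid A is no measure of induction. Unstimulated cells and cytoplasmic RNA were not analysed here. Levels are in TPM, a scale of transcript abundance that divides counts by effective length and so allows levels of different genes to be compared. Means are given ± SD with n = 2 libraries.

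Expected counts on annotated genes totalled 19153465 in replicate 1 and 11622346 in replicate 2. All 10 macrophage markers examined were detected, with Lyz2 at 2309 and 1215 TPM and Csf1r at 532 and 505 TPM. Of 10 neutrophil markers, 2 were detected, and the list summed to 9.01 and 7.23 TPM with Elane and Retnlg listed at 0. B cell, mast cell and fibroblast markers gave 0 of 4 detected in each list. Of all protein-coding genes, 46.0% were detected. In each of the remaining 3 lists 1 marker was detected. Batf3 (of 6 dendritic cell markers) had 4.05 and 2.48 TPM. Cd4 (of 6 T and NK cell markers) had 25.6 and 23.3 TPM, and Kdr (of 4 endothelial markers) had 5.51 and 4.35 TPM. A second deposited quantification, a transcript table summed per gene, detected 2 markers in each of these 3 lists, adding Siglech at 1.22 and 1.72 TPM, Cd3d at 2.53 and 10.1 TPM and Pecam1 at 2.45 and 7.18 TPM, and it detected 1 neutrophil marker. In RNA from a bulk culture, fewer cells of a type and less RNA per cell cannot be told apart.

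All 9 inflammasome genes were detected at 1 TPM or more in both libraries, against 23.6% of all annotated genes and 46.0% of 22028 protein-coding genes. Summed, they reached 252 and 242 TPM in replicates 1 and 2. The median over the 9 genes was 23.8 and 20.6 TPM (22.2 ± 2.21), beside 10.9 and 9.96 TPM (10.4 ± 0.651) over the 10123 detected protein-coding genes. By role, the pore former stood highest at 71.9 ± 8.12 TPM. The 2 caspases had a median of 24.7 ± 3.20 TPM and the 5 sensors a median of 19.4 ± 0.0919 TPM. The adaptor stood at 11.4 ± 1.53 TPM. This order of roles is for all transcripts summed and changed on coding transcripts, as given below. The sensor median fell on Naip5 in replicate 1 and on Nlrp3 in replicate 2. Its small SD is therefore no measure of how far single sensors differed between libraries. A second deposited quantification gave a sensor median of 12.0 ± 5.14 TPM. The 5 sensors ran from Nlrp1b near the top to Nlrc4 at the bottom of the order.

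**Figure D1:**
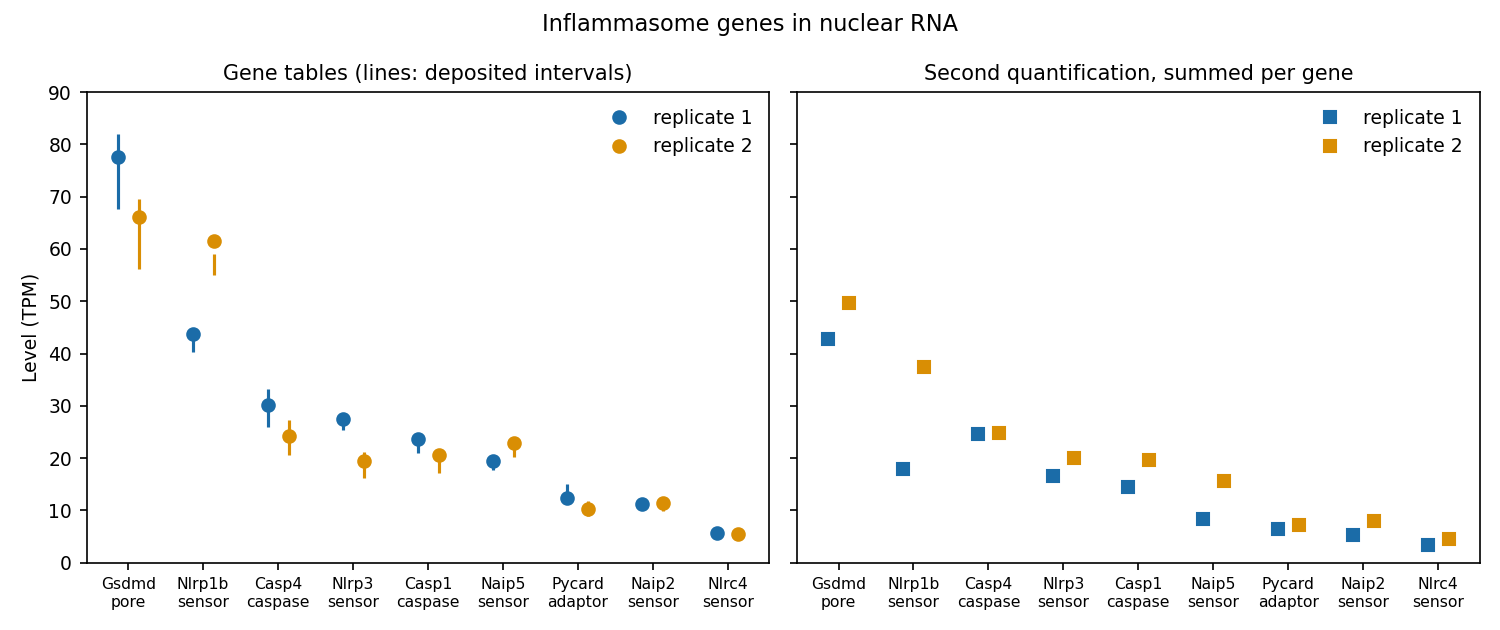
Level in TPM (y axis) of each inflammasome gene (x axis, with its role) in replicate 1 and replicate 2; the left panel shows the gene tables with the deposited intervals as lines, and the right panel the second quantification summed per gene. Gsdmd stood highest and Nlrc4 lowest in both panels, and the second quantification gave lower levels for all genes except Casp4 and Nlrp3 in replicate 2.

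Gsdmd, the executioner of pyroptosis, lies on the plus strand of chromosome 15, 75862327 to 75867408 (mm10, as are all coordinates from the files). It had 77.7 TPM in replicate 1 and 66.2 TPM in replicate 2, with deposited intervals of 67.6 to 82.0 and 56.2 to 69.5 TPM. Its mean exceeded that of 94.8% of detected protein-coding genes. Summed over all transcripts, no other of the 9 genes was higher in either library. The Gsdmd level was 3.27 and 3.21 times that of Casp1, and 2.58 and 2.74 times that of Casp4. These ratios, and in replicate 2 the top place, changed once transcripts were separated, as described below for the annotated models.

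Nlrp1b is a sensor that proteases activate by cutting it, anthrax lethal factor among them, although the allele of C57BL/6 mice does not respond to that toxin. The gene lies on the minus strand of chromosome 11, 71153102 to 71230733. It had 43.7 TPM in replicate 1 and 61.5 TPM in replicate 2, the second highest level of the 9 genes in both gene tables. The deposited intervals, which surround a posterior mean rather than the TPM, ran from 40.3 to 43.1 and from 54.9 to 59.0 TPM and left out the TPM of either library. Nlrp1b was 1.58 times as high as Nlrp3 in replicate 1 and 3.17 times as high in replicate 2.

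Nlrp3 responds to potassium loss and many other disturbances, and its own transcription is known as the priming step of its inflammasome. On the plus strand of chromosome 11 (59541568 to 59566956), it had 27.6 and 19.4 TPM. Nlrc4, the platform that NAIP proteins join once they hold bacterial ligand, lies on the minus strand of chromosome 17 (74425438 to 74459142). It had the lowest level, 5.64 and 5.43 TPM, and 28.9% of detected protein-coding genes were lower. Nlrp3 was 4.89 and 3.57 times as high as Nlrc4.

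The NAIP proteins are the receptors that pick the ligand: NAIP5 binds flagellin and NAIP2 the inner rod protein of bacterial type III secretion. Naip5 (chromosome 13, minus strand, 100211739 to 100246323) had 19.5 and 22.9 TPM. Naip2 (chromosome 13, minus strand, 100144063 to 100202092) had 11.2 and 11.5 TPM. Both receptor genes stood above the Nlrc4 gene in each library, Naip5 by 3.46 and 4.21 times and Naip2 by 1.99 and 2.12 times. Summed with Naip6, a second flagellin receptor, and Naip1, the needle protein receptor, the 4 NAIP genes stood at 8.61 and 11.5 times the level of Nlrc4.

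Pycard (chromosome 7, minus strand, 127989708 to 127993867) had 12.4 and 10.3 TPM, near the middle of the detected protein-coding genes, of which 52.7% were lower. Its only transcript with counts in the gene format tables, Pycard-201, is annotated with 3800 bases, of which 579 are coding. A level per length therefore rests on the whole of that model, and 999 and 533 expected counts lay behind it. Casp1 stood at 1.91 and 2.01 times, and Gsdmd at 6.24 and 6.44 times, the level of this shared adaptor.

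Casp1 (chromosome 9, plus strand, 5298517 to 5307265) had 23.8 and 20.6 TPM, and its neighbour Casp4 (plus strand, 5308828 to 5336783) had 30.1 and 24.2 TPM. Summed over all transcripts, Casp4 was 1.27 and 1.17 times as high as Casp1. In the order of levels in the gene tables, neighbours were separated beyond the range of the libraries at 4 steps. These were Gsdmd above Nlrp1b, Nlrp1b above Casp4, Naip5 above Pycard and Naip2 above Nlrc4. Casp4, Nlrp3, Casp1 and Naip5 formed a run in which each gene's range overlapped with that of its neighbour, and the ranges of Pycard and Naip2 overlapped as well.

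The second quantification, summed per gene, kept the order of all 9 mean levels, from Gsdmd at 42.7 and 49.6 TPM to Nlrc4 at 3.46 and 4.56 TPM. Its median over the 9 genes was 14.5 and 19.6 TPM (17.0 ± 3.66). Nlrp1b, at 18.0 and 37.4 TPM, was the member with the widest gap between libraries there. In replicate 1 Nlrp1b stood below Casp4, which had 24.7 TPM in both libraries, so these neighbours were not separated beyond the range of the libraries. In replicate 2 Naip2 at 7.97 TPM stood above Pycard at 7.15 TPM. On that TPM scale all 9 genes were higher in replicate 2 than in replicate 1, whereas on TMM-scaled counts of the same quantification 7 of the 9 were higher in replicate 1.

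The 9 genes differed in the types of transcript annotated for them. Among the 31 transcripts of the 9 genes, Casp1, Naip5, Nlrp3, Naip2 and Pycard have only ones annotated as protein coding. All of their TPM lay on such transcripts because of the annotation. The other 4 genes, Nlrp1b, Nlrc4, Casp4 and Gsdmd, had 28.4% to 63.1% of their TPM on coding models in replicate 1 and 35.6% to 62.4% in replicate 2. Their remaining TPM lay on models annotated as retained intron or as targets of nonsense-mediated decay. Nonsense-mediated decay is the pathway that degrades mRNA with an early stop codon, mostly during translation in the cytoplasm, whereas the RNA measured here was nuclear.

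**Figure D2:**
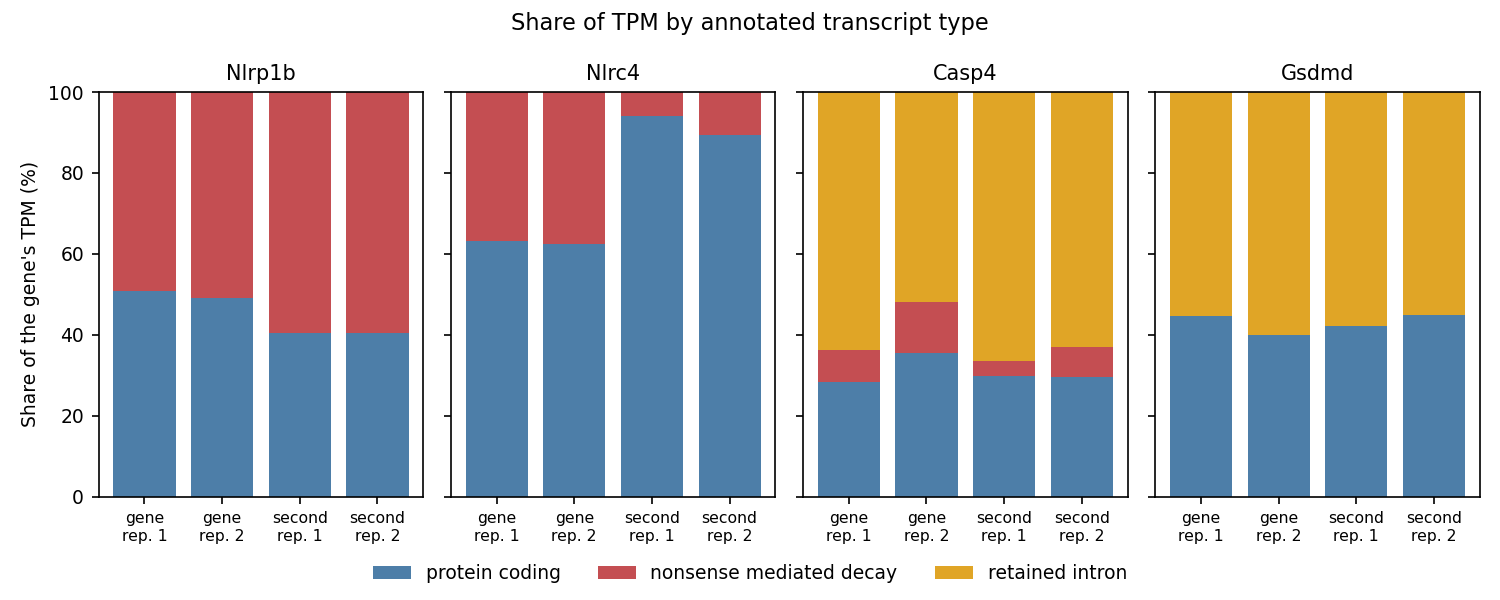
Share of each gene's TPM in percent (y axis) on transcripts annotated as protein coding, nonsense mediated decay or retained intron, for the 4 inflammasome genes with more than 1 type; bars show the gene format tables (gene) and the second quantification (second) for replicates 1 and 2. The coding share of Nlrp1b, Casp4 and Gsdmd lay between 28.4% and 50.7% in all 4 bars, whereas that of Nlrc4 was 63.1% and 62.4% in one quantification and 94.0% and 89.5% in the other.

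Gsdmd had 55.4% and 60.0% of its TPM on 3 models annotated as retained intron, and the second quantification gave 57.9% and 55.1%. Casp4 had 63.7% and 51.8% on 3 such models, and 66.3% and 63.0% in the second quantification. Over the 6326 detected protein-coding genes that have a retained intron model, the median share was 32.3% and 32.4%. It was 36.4% and 36.2% in the second quantification. By TPM of the gene format tables, Casp4 lay above 86.5% and Gsdmd above 86.4% of those genes. Summed over the 3 models of each gene, the share of expected counts was smaller: 26.6% and 33.4% for Gsdmd, and 42.0% and 34.4% for Casp4, beside a median of 19.5% and 20.0% over the same 6326 genes. By share of counts, Casp4 lay above 73.3% and Gsdmd above 63.8% of them.

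Each model holds only some intronic sequence. Gsdmd-206 spans all 99 bases of intron 9 of Gsdmd-201, and Gsdmd-205 runs 64 bases into intron 2, which has 615. Gsdmd-204 holds 255 of the 512 bases of intron 3 and 71 of the 74 bases of intron 8. Casp4-205 holds 228 of 1307 bases of intron 2, Casp4-207 holds 277 of 707 bases of intron 3, and Casp4-202 holds 711 of 7453 bases of intron 7, with introns numbered in Casp4-201. Intronic bases made up 14.6% to 35.6% of the length of the Gsdmd models and 36.8% to 62.5% of the Casp4 models, so the rest of each shares exon sequence with the spliced transcript. Reads from unspliced precursor RNA and from these models cannot be told apart in the tables.

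The boundary that tells Gsdmd-206 from Gsdmd-201 is shown because that model differed by the most TPM between libraries. Both sequences begin at the end of exon 9 on the plus strand. The spliced form joins exon 10 (chr15:75866666-75866814) and the retained form runs on into intron 9 (chr15:75866666-75866715), whose first bases are in capitals and begin with the splice donor GT.
Gsdmd-201: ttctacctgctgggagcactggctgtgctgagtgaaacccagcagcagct
Gsdmd-206: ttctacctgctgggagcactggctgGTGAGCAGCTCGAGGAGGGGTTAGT

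Gsdmd-201, the full-length coding transcript, had 32.0 and 24.0 TPM. Gsdmd-206 had 6.73 TPM in replicate 1 and 28.2 TPM in replicate 2, while Gsdmd-205 had 19.0 and 3.65 TPM and Gsdmd-204 had 17.3 and 7.79 TPM. The split among the 3 retained intron models therefore differed between libraries far more than their summed share did. Gsdmd-206 had 8.55% and 23.1% of Gsdmd TPM in the second quantification. The short Gsdmd-205, with 406 bases, rested on 77.2 and 10.2 expected counts in the gene format tables.

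For Casp4, the boundary at intron 2 is shown because Casp4-205, which ends inside that intron, carried on average the largest share of Casp4 TPM in the second quantification. The spliced form spans chr9:5321488-5322844 on the plus strand and the retained form chr9:5321488-5321537. Capitals again mark the first bases of the intron.
Casp4-201: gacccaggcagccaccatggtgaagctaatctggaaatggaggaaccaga
Casp4-205: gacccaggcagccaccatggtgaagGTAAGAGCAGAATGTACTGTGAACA

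Casp4-201, which encodes caspase-11 in full, had 8.54 and 8.61 TPM, about as much as the retained intron model Casp4-207 at 8.61 and 7.57 TPM. Casp4-205 had 7.08 and 2.25 TPM, and Casp4-202 had 3.49 and 2.69 TPM. A further 7.94% and 12.6% of Casp4 TPM lay on the decay model Casp4-204. In the second quantification Casp4-205 held 33.9% and 25.1% of Casp4 TPM, against 15.6% and 25.2% for Casp4-201.

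**Figure D3:**
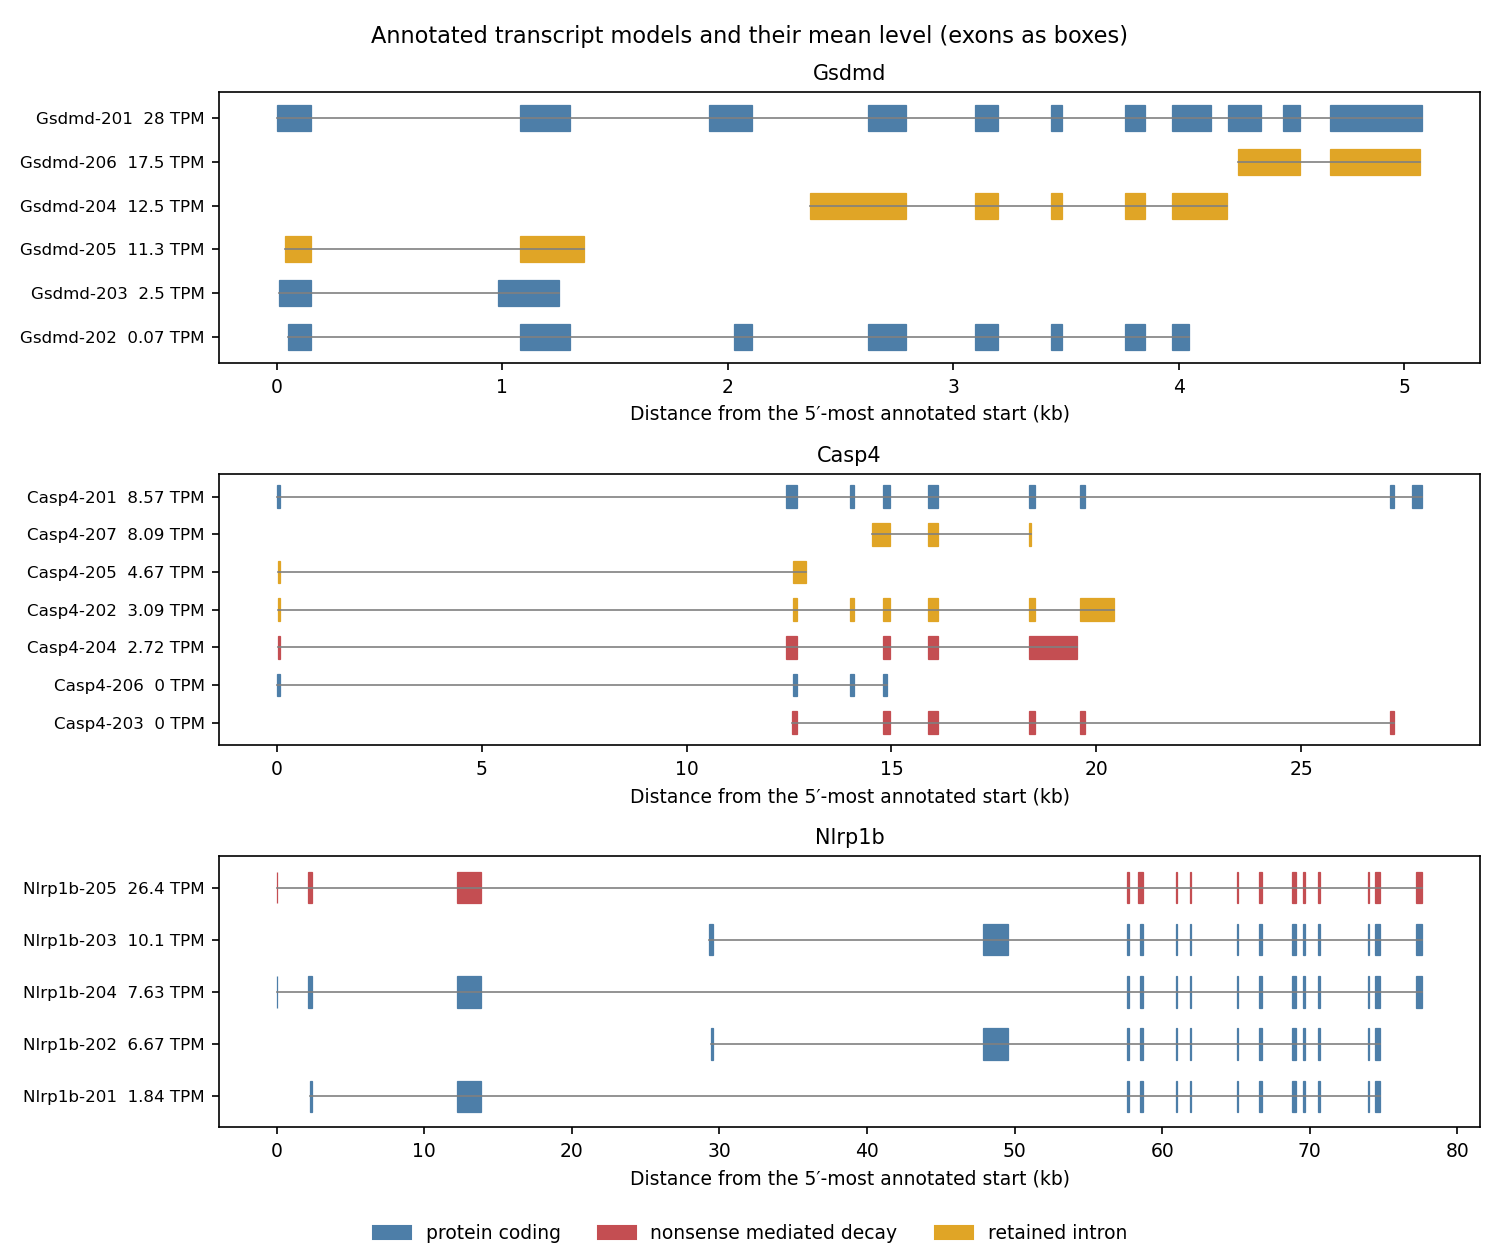
Exons (boxes) and introns (lines) of the annotated transcripts of Gsdmd, Casp4 and Nlrp1b against distance from the first annotated start in kb (x axis), coloured by annotated type, with the mean TPM of the gene format tables beside each name. Gsdmd-201 (28.0 TPM) led Gsdmd, Casp4-201 (8.57 TPM) was close to Casp4-207 (8.09 TPM), and the decay model Nlrp1b-205 (26.4 TPM) led Nlrp1b.

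Nlrp1b had about equal TPM on 1 decay model and on 4 coding models together. Nlrp1b-205, the decay model, had 21.5 and 31.2 TPM, which was 49.3% and 50.8% of the gene. The second quantification placed 59.5% there in both libraries, and 51.5% and 53.4% of expected counts fell on it. Over 3164 detected protein-coding genes with a decay model, the median share was 3.85% and 3.74%, and Nlrp1b lay above 96.9% of them. The median in the second quantification was 8.56% and 8.49%. Exon 5 of 15 in Nlrp1b-205 begins 160 bases earlier than the matching exon of Nlrp1b-204. The reading frame of Nlrp1b-205 ends at a stop codon whose last base is base 34 of the added sequence. The models have 4319 and 4134 bases, so this extension is not their only difference.

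Both junctions are shown on the minus strand, Nlrp1b-204 at chr11:71172211-71172978 and Nlrp1b-205 at chr11:71172362-71172978. The first 20 bases, in capitals, are the end of the exon before, and the final capitals of Nlrp1b-205 are the stop codon.
Nlrp1b-204: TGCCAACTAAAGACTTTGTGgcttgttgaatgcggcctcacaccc
Nlrp1b-205: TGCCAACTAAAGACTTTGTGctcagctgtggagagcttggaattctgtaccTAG

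The coding models of Nlrp1b were lower one by one: Nlrp1b-203 had 8.10 and 12.0 TPM, Nlrp1b-204 had 8.17 and 7.10 TPM, and Nlrp1b-202 had 5.89 and 7.44 TPM. They fall into groups by their first exon. The 3 transcripts that begin in the upstream region (Nlrp1b-201, Nlrp1b-204 and Nlrp1b-205) held 68.0% and 68.3% of Nlrp1b TPM, and the 2 that begin downstream (Nlrp1b-202 and Nlrp1b-203) held 32.0% and 31.7%. The second quantification gave 67.3% and 67.5% upstream, so both methods and both libraries gave 67.3% to 68.3%. The upstream and downstream groups also carry different large exons near the start, as the drawing of the models shows.

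The 150 bases before each Nlrp1b start are printed from RefSeq (GRCm38.p6, minus strand), the upstream one at chr11:71230734-71230883 and the downstream one at chr11:71201457-71201606. Capitals mark GAGGAA, the core of many sites of the myeloid factor PU.1.
Nlrp1b upstream start: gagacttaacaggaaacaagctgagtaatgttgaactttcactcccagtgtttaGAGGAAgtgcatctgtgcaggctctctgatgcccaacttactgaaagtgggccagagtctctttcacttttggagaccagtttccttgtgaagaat
Nlrp1b downstream start: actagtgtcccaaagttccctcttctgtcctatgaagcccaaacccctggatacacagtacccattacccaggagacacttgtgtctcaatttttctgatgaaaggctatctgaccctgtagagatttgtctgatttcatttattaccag

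GAGGAA, searched on both strands, was in the upstream and not in the downstream window. The search was also run on windows of 300 bases, from 250 before to 50 after each start. Among 11 such windows of the 8 genes found in the RefSeq table, some of which overlap, 4 held it, in Pycard, Casp1, Nlrp3 and Nlrp1b, while 28.3% of all 32851 windows did. TATAAA was in 1 of the 11, in Naip5, against 13.6% of all windows. GAAANNGAAA, the core of interferon-stimulated response elements, was in 0 of the 11, against 3.44% of all. Gsdmd was not among the matched genes. A match says only that these letters occur there.

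Nlrp3 also has an upstream start (Nlrp3-201) and a downstream one (Nlrp3-202 and Nlrp3-203), but here the quantifications differed. The upstream transcript held 55.6% and 65.2% of Nlrp3 TPM in the gene format tables, and 7.78% and 25.1% in the second quantification. Which Nlrp3 start was used more was thus not settled by these data. Naip2 was split in a like manner: Naip2-201 held 7.51 and 8.89 TPM of its level in the gene format tables, whereas Naip2-202 led the second quantification at 4.15 and 4.56 TPM.

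Nlrc4 had a decay model whose share depended on the method. Nlrc4-202 skips the first 14 bases of exon 4 of Nlrc4-201, which shifts the reading frame and cuts the coding length to 348 bases, against 3072 there. It held 36.9% and 37.6% of Nlrc4 TPM in the gene format tables, above 93.3% of genes with a decay model. In the second quantification it held 6.02% and 10.5%, beside a median of 8.56% and 8.49% over such genes. The junctions span chr17:74447096-74447977 on the minus strand, and capitals mark the bases that Nlrc4-202 lacks.
Nlrc4-201: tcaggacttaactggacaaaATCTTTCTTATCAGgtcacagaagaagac
Nlrc4-202: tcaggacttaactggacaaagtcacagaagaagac

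The effective length behind the gene's TPM was 888 and 872 bases for Gsdmd, against 1792 annotated bases of Gsdmd-201, and 820 and 987 bases for Casp4, against 1435 of Casp4-201. On coding transcripts alone, a sum added after the data were seen, the caspases changed places. Casp1 had 23.8 and 20.6 TPM of coding transcripts, and Casp4 had 8.54 and 8.61 TPM. Casp1 was thus 2.78 and 2.40 times as high as Casp4, and 1.96 and 2.69 times in the second quantification. The sensor median was 19.5 and 19.4 TPM of coding transcripts, above the caspase median in both libraries. In the second quantification the sensor median was above the caspase median in replicate 2 only. Gsdmd had 34.7 and 26.5 TPM of coding transcripts, or 1.46 and 1.28 times Casp1. It was highest of the 9 genes in replicate 1, but Nlrp1b was higher in replicate 2. In the second quantification Gsdmd stayed highest in both libraries. Nlrp1b had 22.2 and 30.3 TPM, 0.803 and 1.56 times the level of Nlrp3, and 0.438 and 0.753 times in the second quantification. Nlrc4, with 3.56 and 3.39 TPM, was lowest of the 9 genes in both libraries on this measure as well.

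The NAIP genes are near copies of each other, which bears on their levels. The coding sequence of Naip5 matched that of Naip6 at 97.0% of aligned bases, with an identical run of 229 bases, and that of Naip2 at 90.0%, with a run of 140 bases. Of all 31-base windows of Naip5-201, 52.6% occurred in another annotated gene, most often Naip6, and 33.8% of those of Naip2-201 did, most often in Naip1. Over windows of 100 bases the shares were 16.2% and 4.66%. For Nlrp1b-205 the shares were 6.48% (31 bases) and 0.0711% (100 bases), most often Nlrp1a, and for Nlrp3, Casp1, Casp4 and Gsdmd they were 0. Nlrc4-201 shared 3.41% and Pycard-201 0.0796% of their 31-base windows, and 0 of their 100-base windows. The level of an individual NAIP gene is therefore uncertain.

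As an example of shared sequence, 60 bases that include the end of the longest run shared by Naip5 and Naip2 are given. The stretch was chosen for its likeness, and over the whole coding sequence 90.0% of aligned bases matched. Both are on the minus strand, Naip5 at chr13:100222954-100223013 and Naip2 at chr13:100161622-100161681. Capitals mark the 4 bases that differ.
Naip5-201: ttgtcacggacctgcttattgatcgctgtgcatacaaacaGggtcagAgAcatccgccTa
Naip2-201: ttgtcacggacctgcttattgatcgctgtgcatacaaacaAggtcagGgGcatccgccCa

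Between the libraries, 0 of the 9 genes differed by more than 2-fold in TMM-scaled counts. Over 11526 genes with a mean count of 50 or more, 1.93% did, 1.47% being higher and 0.46% lower in replicate 1, and 1.49% of the protein-coding ones. A single library stands on each side, so this difference has no replicate check. Nlrp1b was farthest apart, with 2974 scaled counts in replicate 1 and 4495 in replicate 2, a log2 difference of -0.60, and 92.0% of genes were closer. Nlrp3 had 1795 and 1276 scaled counts, a log2 difference of 0.49, and 87.2% of genes were closer. Naip5 followed at -0.34, and the other 6 genes lay between -0.15 and 0.16. The central 95% of genes spanned -0.59 to 0.81, so Nlrp1b fell just below that range.

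**Figure D4:**
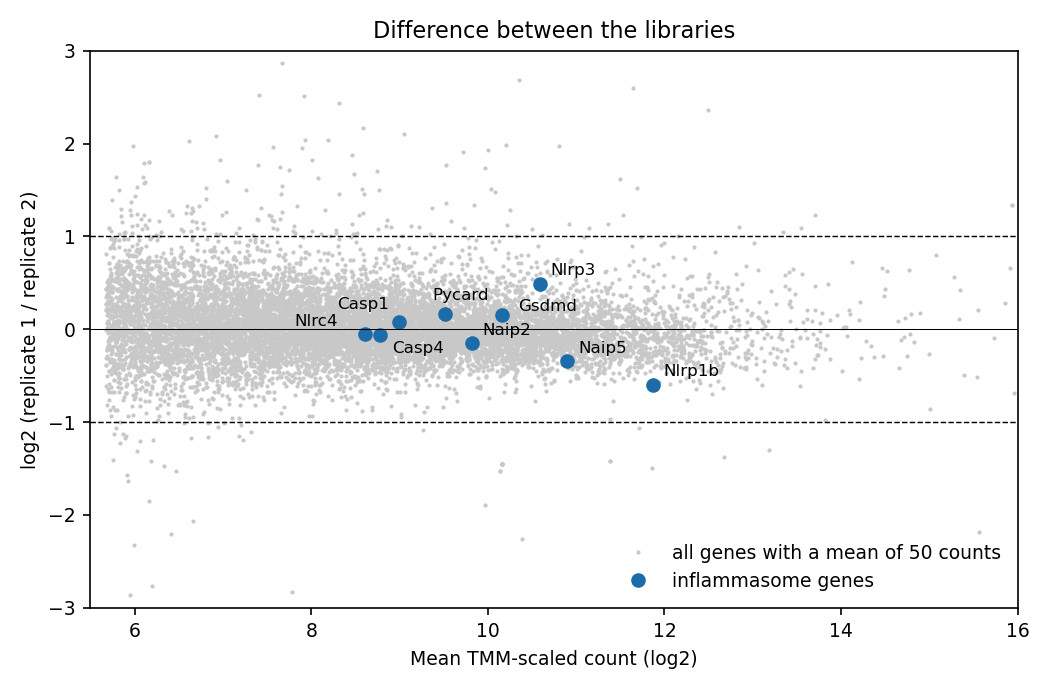
Log2 difference between replicate 1 and replicate 2 (y axis) against mean TMM-scaled count on the log2 scale (x axis) for genes with a mean of at least 50 counts (grey) and the 9 inflammasome genes (blue); dashed lines mark 2-fold, and 21 genes lie outside the plotted range. Nlrp3 at 0.49 and Nlrp1b at -0.60 stood farthest from 0, and no inflammasome gene crossed the dashed lines.

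Among the cytokine genes, Il1b, which encodes interleukin-1β, had 31.8 TPM in replicate 1 and 5.81 TPM in replicate 2, a log2 difference of 2.44 in scaled counts. Il1a had 15.4 and 5.14 TPM, a log2 difference of 1.46. Il18, whose product caspase-1 also cuts, had 19.3 and 18.0 TPM with a log2 difference of -0.04. In this list 4 of 5 genes were detected, Il33 being the exception, beside 46.0% of all protein-coding genes. The RNA input differed between these libraries as well, and its part in the differences was not tested.

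Among 14 further sensor genes matched by symbol, with a median of 2.31 and 2.14 TPM, 8 were detected. The share detected over all protein-coding genes was 46.0%. The interferon-induced Nlrc5, which regulates MHC class I genes, had 68.3 and 75.0 TPM, and Aim2, the sensor of cytosolic DNA, had 62.8 and 80.4 TPM. Both were higher than Nlrp1b in each library. Naip6 had 17.8 and 27.9 TPM, and Nlrp1a, beside Nlrp1b on chromosome 11, had 0.82 and 0.78 TPM. Naip1 had 0.06 and 0.04 TPM, from 7.05 and 3.01 counts, and 0.234 and 0.373 TPM in the second quantification. Nlrp9b and Nlrp12 were listed at 0, which allows up to 3 counts, or 0.157 and 0.258 CPM, although the second quantification gave Nlrp9b 0.286 and 0.497 TPM and Nlrp12 0.252 and 1.16 TPM.

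All 18 matched regulator genes were detected in the gene tables and 17 in the second quantification, with a median of 16.1 and 15.9 TPM. Txnip, a thioredoxin inhibitor that binds NLRP3, had 143 and 110 TPM, followed by Trim30a at 90.7 and 96.8 TPM and the deubiquitinase Usp7 at 38.5 and 57.5 TPM. The lowest were the channel gene Panx1 at 4.07 and 1.96 TPM and Tmem176a at 3.65 and 1.78 TPM. Of 8 transcription factors known for these genes, 7 were detected. For both lists, the share detected over all protein-coding genes was 46.0%. Irf8, which drives NAIP genes, had 77.7 and 65.1 TPM, and Irf1 had 82.5 and 39.0 TPM. Rela stood at 15.8 and 12.2 TPM, and Irf4 at 0.94 and 0.88 TPM was not detected.

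For the lists that follow, the share detected over all protein-coding genes was 46.0%. Of 6 genes for other gasdermins and for membrane rupture, 2 were detected: Ninj1, which tears the membrane after gasdermin pores form, at 40.3 and 22.8 TPM, and Gsdme, which caspase-3 cuts, at 5.66 and 4.90 TPM. Gsdmc and Ninj2 were listed at 0 and Pjvk had 0.18 and 0.07 TPM. Of 8 other caspase genes, 6 were detected, led by Casp8 at 25.7 and 33.5 TPM, Casp9 at 12.0 and 9.32 TPM and Casp2 at 8.80 and 9.82 TPM. Casp12, next to Casp4 on chromosome 9, had 1.14 and 0.17 TPM, and Casp14 was listed at 0. All 6 genes of other lytic death pathways were detected in the gene tables and 5 in the second quantification, where Fadd had 0.950 and 1.38 TPM. They ranged in the gene tables from Cflar, an inhibitor of caspase-8, at 93.9 and 71.9 TPM, through Ripk1 at 33.7 and 31.4 TPM and Tnfaip3 at 31.8 and 16.6 TPM, to the necroptosis kinase Ripk3 at 3.98 and 5.45 TPM and Fadd at 2.20 and 2.01 TPM.

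**Figure D5:**
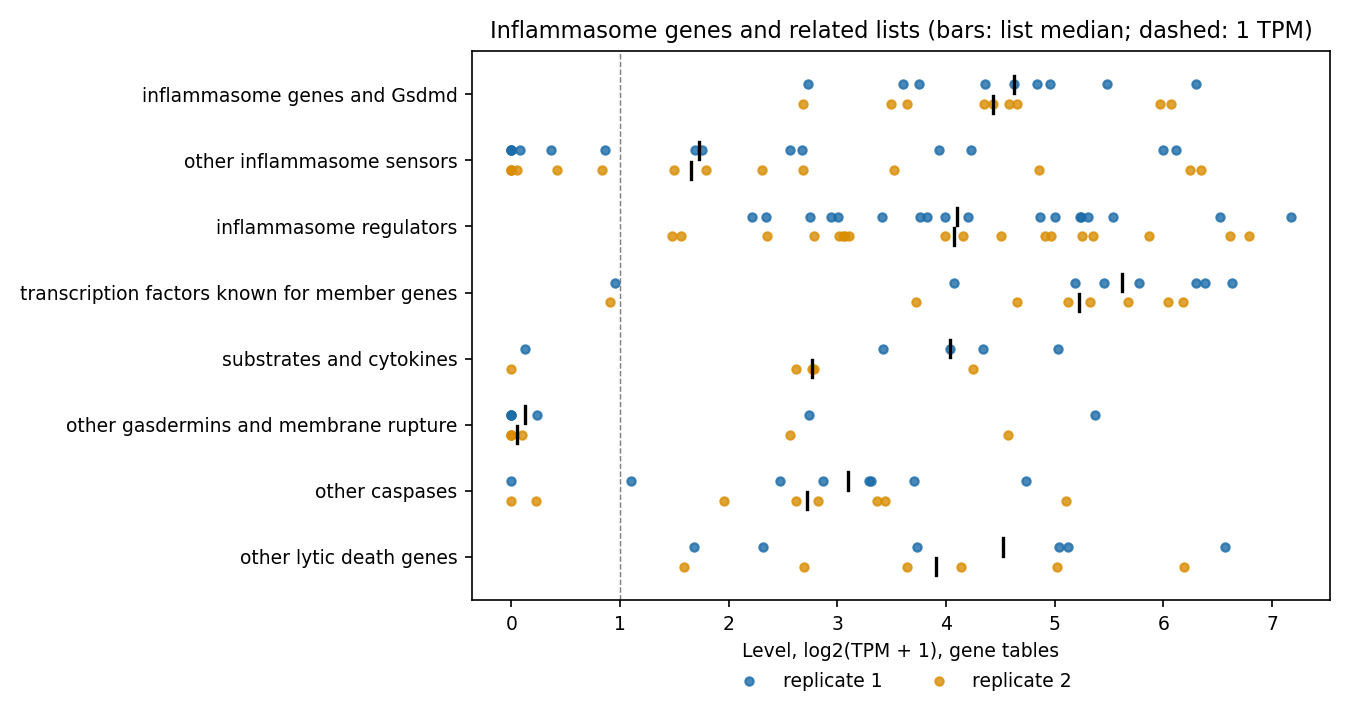
Level of single genes on the log2(TPM + 1) scale (x axis) in the 9 inflammasome genes and 7 related lists (y axis), for replicate 1 and replicate 2; black bars are list medians and the dashed line is 1 TPM. The 9 inflammasome genes all lie right of the dashed line, with medians of 23.8 and 20.6 TPM. Not detected were 6 of 14 other sensors and 4 of 6 genes for other gasdermins and membrane rupture. Of all protein-coding genes, 46.0% were detected.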

How the data were processed

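Expected counts and TPM of genes and transcripts were deposited by the authors in 1 gene table and 2 transcript tables per library. Per the file headers and the accompanying notes, alignments to the transcriptome (build mm10, annotation GENCODE M21) gave the gene tables and the transcript tables of the same format. The other transcript table, the second quantification, holds estimated counts and TPM made from the same annotation. Neither the programs nor the strand handling was given in the sources used here, so reads of genes overlapping on opposite strands could not be told apart. Interval bounds around TPM, on a signal scale without negative values, are as the authors deposited them. Entries naming no annotated gene, 1.18% and 0.405% of counts, were left out.

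The second tables were summed per gene. Expected counts were rounded and scaled by TMM (edgeR 4.0.16, R 4.3.3), with DESeq2 1.42.0 size factors as an alternative, and log2 differences used a pseudocount of 1 count. Detection meant 1 TPM in both libraries. Shares by transcript type used annotated types, and percent values were computed from the deposited TPM and counts. Stated limits cover counting alone, as there were no molecular identifiers and reads are not independent. Named companion genes were the 3 highest and 2 lowest of each list and cluster neighbours; Card8 and Irgb10 matched no symbol. A gene that this rule allows is left out of the text. The genes and lists were chosen with earlier results of these data known. The step that counts genes over 2-fold apart was tested on simulated data. Python 3.11.15, pandas 2.3.3 and numpy 2.4.6 were used.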

Additional observations from a re-analysis of the deposited data

How the results depend on the processing

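All 9 genes were detected at 0.1 or 5 TPM, by 10 counts and by posterior mean TPM. They were also detected by the second quantification and in either library alone. With DESeq2 size factors, a pseudocount of 5, other count filters or log2(TPM + 1) of the gene tables, 0 of 9 lay over 2-fold apart. The same held for TMM-scaled counts of the second quantification. Its plain TPM was not among the alternatives run, and there Nlrp1b lay over 2-fold apart, at 18.0 and 37.4 TPM. The median level of the 9 genes, 22.2 TPM, was 17.0 TPM in the second quantification, 92.3 TPM when TPM was rescaled to protein-coding genes without mitochondrial genes, and 19.4 TPM over coding transcripts only, an alternative added after seeing the data. Without either library it ranged from 20.6 to 23.8 TPM. Of the 9 levels, 7 moved by more than 1 SD in the second quantification and 4 over coding transcripts only. Shares of expected counts, also added later, moved the leading transcript's share in 4 genes. By log2(TPM + 1), the difference between libraries for Casp4 was 0.31 rather than -0.06, and by the second quantification that of Nlrc4 was 0.20 rather than -0.06. No paired analysis was possible because there was 1 group. Depth limits transcripts of low genes most: Nlrc4 rested on 495 and 307 counts.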

Other observations

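Pseudogenes lie in the clusters of the sensor genes. Nlrp1c-ps, a transcribed pseudogene on chromosome 11 (71242430 to 71285232, upstream of Nlrp1b), had 38.2 and 48.0 TPM in replicates 1 and 2, and 19.2 and 35.5 TPM in the second quantification. In both libraries this was higher than Nlrp3. The pseudogenes were chosen for mention after their values had been seen. Naip3-ps1, between Naip5 and Naip6 on chromosome 13, had 0.86 and 0.83 TPM. Within annotated bounds, Pycard is overlapped on the opposite strand by Gm45205 over 599 bases, which had 0.43 and 0.46 TPM, and Naip2 contains Gm18413, which had 2.18 and 1.57 TPM. Nlrc4 contains CT033749.1, which had 1.01 TPM in replicate 1 and was listed at 0 in replicate 2.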
